A study of Mus musculus with 6 samples.

Results

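STAT and IRF genes encode transcription factors that carry cytokine and interferon signals into the nucleus, and 8 of them (Stat2, Stat3, Stat6, Irf1, Irf2, Irf7, Irf8 and Irf9) were followed here among the 28752 genes of the deposited table. They were chosen with earlier results of these data known. Their rows were taken by gene symbol, and each symbol matched 1 row. RNA sequencing had been performed on mouse intestinal crypt stem cells, in 3 samples with vector (genotype WT in the labels) and 3 samples with circEZH2_005 overexpression. Lgr5+ stem cells, sorted by their GFP reporter, were grown as organoids, infected with adenovirus for 72 h and exposed to hypoxia/reoxygenation (H/R), with 4 h at 2% O2. All 6 samples shared the H/R exposure, the labels name the adenovirus only for circEZH2_005, and the age of the Lgr5-GFP donors and the number of mice behind these samples are not given. The study describes its replicates in general as biological, but the labels do not tie these 6 samples to separate cultures or animals, so the p-values below measure the spread between these samples, which may be partly technical.

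In the resting cell, STAT proteins wait in the cytoplasm until Janus kinases (JAKs) bound to a cytokine receptor phosphorylate them. Type I and type III interferons act through a complex of STAT and IRF subunits called ISGF3, in which Stat2 and Irf9 take part and which binds the interferon-stimulated response element (ISRE). Irf1 and Irf7 are inducible activators, Irf2 competes with Irf1 for the same sites, Irf8 is best known from myeloid and B cells, Stat3 responds to the interleukin-6 and interleukin-22 families and Stat6 to interleukin-4 and interleukin-13. In the gut epithelium these routes are known for antiviral defence, for repair after injury and for the response to worms.

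Promoter sequences are shown for the members with motif matches upstream of the start whose stretch, flanking bases included, touches no annotated exon of any gene. They let the interferon and cytokine elements searched for be seen at these genes. The sequences are from RefSeq (GRCm38.p6), read 5′ to 3′ on the plus strand, and capitals mark the matched letters. The windows cover 250 bases before to 50 bases after each transcript start, and all 8 members had a window, with 11 windows in all.
Irf1, chr11:53769904-53769952: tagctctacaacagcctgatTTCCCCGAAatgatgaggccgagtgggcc
Irf8, chr8:120736167-120736233: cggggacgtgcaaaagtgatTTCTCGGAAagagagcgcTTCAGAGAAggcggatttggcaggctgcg
Stat2, chr10:128270256-128270317: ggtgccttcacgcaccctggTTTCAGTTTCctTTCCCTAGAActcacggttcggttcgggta

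The Irf1 stretch holds 1 gamma-activated site (GAS), the element that STAT dimers bind, searched as TTCNNNGAA; its first base lies 90 bases before the transcript start. Irf8 holds 2 such sites, starting 171 and 153 bases before its first start. Stat2 holds, 222 bases before the RefSeq start, the ISRE core GAAANNGAAA on the complementary strand, and 210 bases before it the form with a spacer of 4 bases that Stat6 prefers, TTCNNNNGAA; these 2 matches do not overlap. Both strands were searched. Among the members' 11 windows, 3 held the GAS, 2 the ISRE core and 2 the wider form, against 8.30%, 3.44% and 6.95% of all 32851 windows of the same length. Irf2 also matched the GAS and the ISRE core, starting 224 and 241 bases before its start. Irf9 matched the wider form, past a transcript start. These stretches, flanking bases included, overlap an annotated exon and are not shown. The windows of Stat3, Stat6 and Irf7 held none of the motifs searched for. A match is a description of letters and does not show that a factor binds there.

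Irf1, Irf8 and Stat3 rose with circEZH2_005. Irf1 and Irf8 were about doubled, with fold changes of 2.14 and 2.09, and Stat3 had a fold change of 1.45. Irf7 and Stat2 had fold changes of the same size or larger, 2.44 and 2.08, but their samples were too spread for the test, and Irf9, with 1.33, also missed it. Stat6 and Irf2 were nearly level between the groups, with fold changes of 1.10 and 1.13. Thus 3 of 8 members were higher at an adjusted p-value under 0.05 (quasi-likelihood test in edgeR, Benjamini-Hochberg adjustment over the 18348 genes tested), where 2.69% of all genes tested were. None was lower (0 of 8, also at an unadjusted p under 0.05, and by DESeq2 and by limma on log2(FPKM + 1)), where 0.986% of all genes were. In 6 of 8 members the lowest circEZH2_005 sample exceeded the highest vector sample in CPM (counts scaled to library size, with TMM factors), against 16.4% of all genes tested. The median log2 fold change was 0.80 over the members and 0.00 over all genes, and all 8 members passed the filter on low counts. As the members were chosen with earlier results of these data known, the shares of all genes serve for description only.

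These calls were close to the threshold and rested on most samples. With vector sample 1, vector sample 3, circEZH2_005 sample 2 or circEZH2_005 sample 3 left out, 0 of 8 members were called by edgeR. Without circEZH2_005 sample 1, 2 were called (Irf8 and Stat3). Without vector sample 2, 6 were called, namely all but Stat6 and Irf2. No other library, when left out, raised this count. Over all genes tested, 493 were higher with all samples, 1098 without vector sample 2 and 553 without circEZH2_005 sample 1. Without vector sample 1, vector sample 3, circEZH2_005 sample 2 and circEZH2_005 sample 3 these were 26, 31, 62 and 136.

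**Figure D1:**
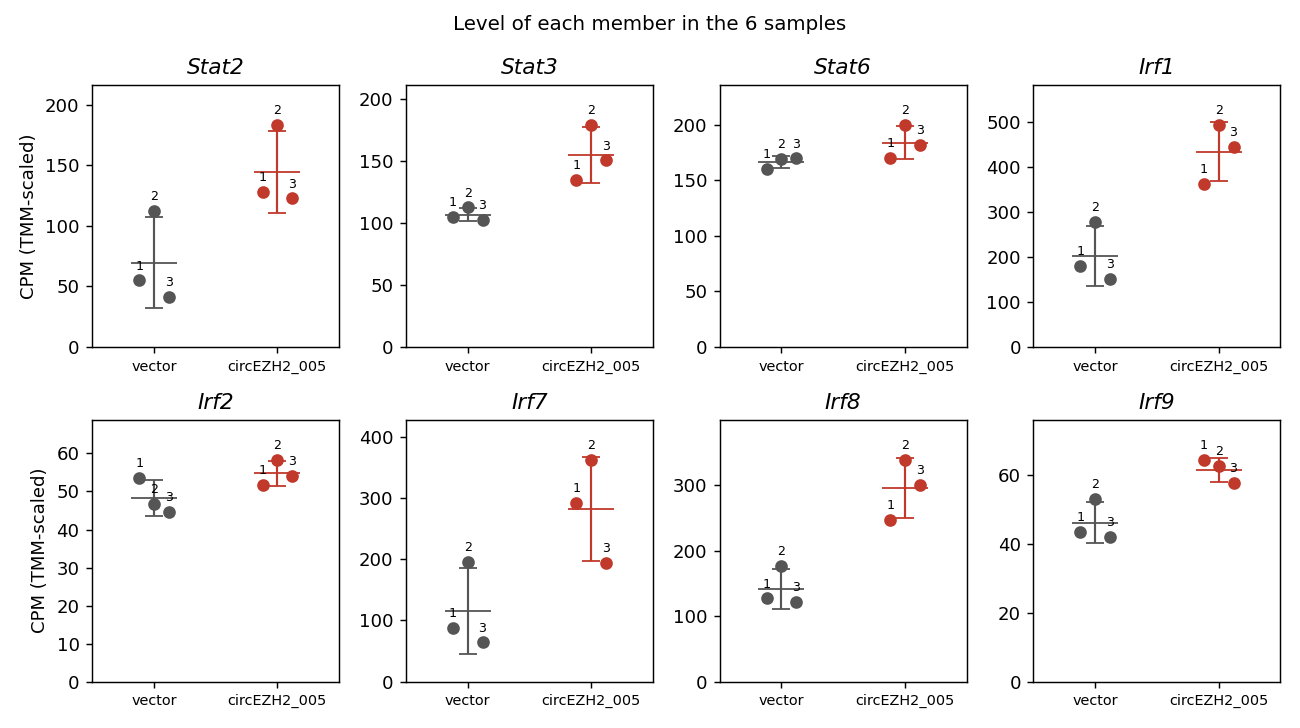
CPM (TMM-scaled) of the 8 members in each sample, with the replicate number beside each point and the group mean ± SD as bars (n = 3 per group). All circEZH2_005 samples lie above all vector samples except for Irf2 and Irf7, and vector sample 2 is the highest vector sample for 6 members; for Stat6 it is level with vector sample 3, and for Irf2 vector sample 1 is the highest.

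Irf1 (ENSMUSG00000018899, chromosome 11, 53770014 to 53777323, plus strand, mm10), a fast transcriptional activator downstream of interferon-gamma, had 179.6, 278 and 151 CPM in vector samples 1 to 3 and 363, 494 and 445 CPM in circEZH2_005 samples 1 to 3. The groups did not overlap, and vector sample 2 stood closest to the circEZH2_005 samples. The mean went from 203 ± 66.6 to 434 ± 65.9 CPM (SD, n = 3 each). The difference was a log2 fold change of 1.10 (standard error, SE, 0.23, edgeR adjusted p = 0.0472). The adjusted p lay between 1.00e-05 and 0.167 over 15 alternatives, and 6 of them kept it under 0.05. A transcript on the other strand, Gm17334, overlaps Irf1 over 3145 bases and had a log2 fold change of 0.98 (edgeR adjusted p = 0.0469). No source says that strand was used in counting, so reads of this pair cannot be told apart.

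Its counterpart Irf2 (chromosome 8, 46739732 to 46847458), which represses many of the sites that Irf1 activates, had 53.5, 46.7 and 44.6 CPM with vector and 51.8, 58.4 and 54.1 CPM with circEZH2_005. Vector sample 1 lay within the circEZH2_005 range, and a difference was not detected (log2 fold change 0.18, 95% interval from -0.04 to 0.40, edgeR adjusted p = 0.297). The ratio of Irf1 to Irf2 in FPKM (fragments scaled to transcript length and library depth), which does not depend on how libraries are scaled, was 6.25, 11.1 and 6.28 with vector and 13.1, 15.8 and 15.3 with circEZH2_005. The groups did not overlap (p = 0.1 in a two-sided exact permutation test, the smallest that 3 samples against 3 allow; adjusted p = 0.2 over the 4 ratios tested).

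Irf8 (chromosome 8, 120736358 to 120756694) had the smallest p of the members, with rank 228 among the genes tested. Its level was 127, 176 and 121 CPM with vector and 247, 339 and 301 CPM with circEZH2_005, with a clear gap between the groups. The log2 fold change was 1.06 (SE 0.17, edgeR adjusted p = 0.0286), from 142 ± 30.2 to 295 ± 46.1 CPM (SD, n = 3 each). Over 15 alternatives the adjusted p ranged from 1.47e-07 to 0.129, and 8 kept it under 0.05.

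Irf7 (chromosome 7, 141262706 to 141266481, minus strand), the amplifier of the type I interferon response, had 88.1, 196 and 64.1 CPM in vector samples and 292, 363 and 194 CPM in circEZH2_005 samples. Vector sample 2 lay just above circEZH2_005 sample 3, so the groups overlapped. Its log2 fold change, 1.29, was the largest of the members and had the widest error (SE 0.41, 95% interval from 0.32 to 2.25, edgeR adjusted p = 0.116). Without vector sample 2 it was 1.89, with an adjusted p of 0.00978.

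Stat2 and Irf9, which bind each other in ISGF3, did not pass the test, and a difference between their changes was not shown. Stat2 (chromosome 10, 128270559 to 128292849) had 54.9, 112 and 41.4 CPM with vector and 128, 183 and 123 CPM with circEZH2_005, again with vector sample 2 far above the other vector samples. The log2 fold change was 1.05 (SE 0.35, edgeR adjusted p = 0.127), and without vector sample 2 it was 1.59 (adjusted p = 0.00758). Irf9 (chromosome 14, 55603571 to 55610030), which gives the complex its DNA contact, had 43.5, 53.0 and 41.9 CPM with vector and 64.4, 62.5 and 57.6 CPM with circEZH2_005. The groups were apart but close, at a log2 fold change of 0.41 (SE 0.11, edgeR adjusted p = 0.0704), and Irf9 overlaps Rnf31 by 123 bases on the same strand, where the counting could split reads between them. Without vector sample 2, its adjusted p was 0.0166, and with all samples by DESeq2 it was 0.0223. The FPKM ratio of Irf9 to Stat2 was 0.872, 0.519 and 1.11 with vector and 0.555, 0.375 and 0.517 with circEZH2_005, which overlapped (exact permutation test, two-sided, p = 0.2). The ratio of Irf7 to Irf9 overlapped as well, with 2.89, 5.27 and 2.18 against 6.47, 8.29 and 4.80 (two-sided exact permutation test, p = 0.2).

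**Figure D2:**
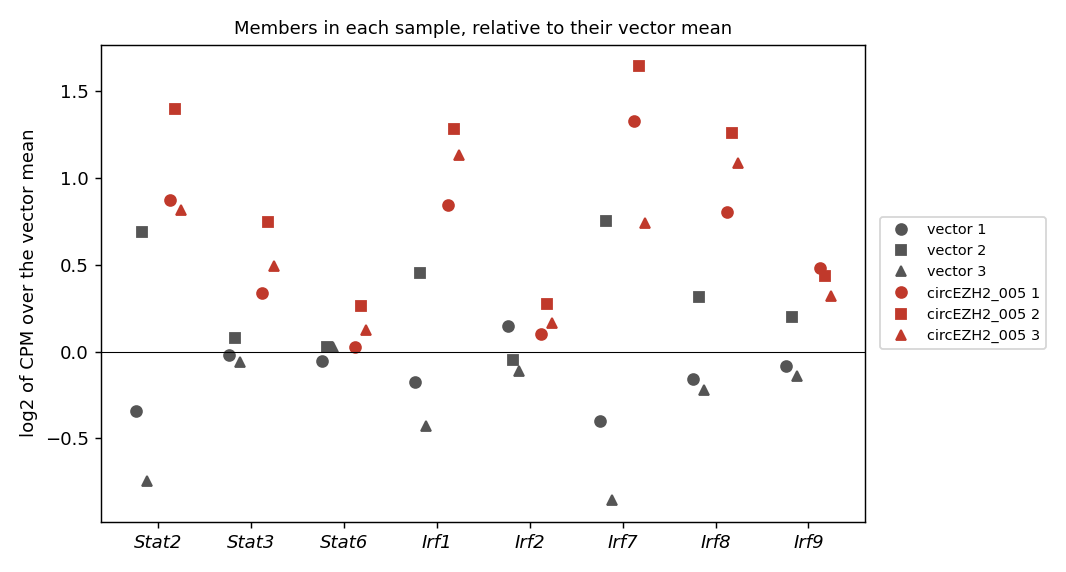
Each member's level in the 6 samples as log2 of its CPM over its own vector mean; grey points are vector samples, red points circEZH2_005 samples, and the shape gives the replicate number. Irf7 and Stat2 spread widest within the vector group, where vector sample 2 lies apart from samples 1 and 3, while Stat6, Irf2 and Stat3 spread least.

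Stat3 (chromosome 11, 100885098 to 100939540, minus strand), the main STAT of epithelial repair signals, had 105, 112 and 102 CPM with vector and 135, 179 and 150.2 CPM with circEZH2_005. The vector samples were tight, with an SD of 5.32 CPM, and all lay below the circEZH2_005 samples. A log2 fold change of 0.54 (SE 0.11) thus passed the test, though narrowly (edgeR adjusted p = 0.0496, from 0.00124 to 0.187 over 15 alternatives, 4 of them under 0.05). Stat6 (chromosome 10, 127642986 to 127660957) had 161, 169 and 169.6 CPM with vector and 169.9, 199.8 and 182 CPM with circEZH2_005. The highest vector and the lowest circEZH2_005 value nearly touched in CPM, and the groups overlapped in FPKM. The log2 fold change was 0.14 (95% interval from -0.06 to 0.35, edgeR adjusted p = 0.373). The FPKM ratio of Stat3 to Stat6 was 0.302, 0.307 and 0.278 with vector and 0.366, 0.414 and 0.382 with circEZH2_005, without overlap (two-sided exact permutation test, p = 0.1; adjusted p = 0.2 over the 4 ratios). Stat3 and Stat5a overlap by 72 bases, Stat6 and Nab2 by 40 and Irf7 and Phrf1 by 45, each on opposite strands.

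Per length, Irf1 had the highest median of the members in both groups, at 41.1 FPKM in vector and 94.9 FPKM in circEZH2_005 samples. With vector, Stat6 followed at 35.7 FPKM, then Irf7 at 21.2, Irf8 at 16.4, Stat3 at 10.02, Stat2 at 8.44, Irf9 at 7.35 and Irf2 at 5.91 FPKM. In this group the range of Irf7 (15.7 to 48.6 FPKM) took in those of Stat6 and Irf8, and that of Stat2 (6.47 to 17.8 FPKM) took in those of Stat3 and Irf9, so these neighbours cannot be ordered. Nor can Irf1 and Stat6, since Irf1 (35.1 to 65.4 FPKM) overlapped Stat6 (33.2 to 36.0 FPKM). With circEZH2_005, Irf1 was followed by Irf7 at 72.1 FPKM and Irf8 at 36.1 FPKM. Stat6, at 36.0 FPKM, came next, its range within that of Irf8, then Stat2 at 20.1, Stat3 at 13.4, Irf9 at 9.67 and Irf2 at 6.52 FPKM. Irf1 and Irf7 did not overlap in this group, whereas they did with vector.

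Profiles over the 6 samples were compared by the root mean square difference of centred log2 CPM, among 11601 tested genes averaging 1 FPKM or more. Of all pairs of members, Irf1 and Irf8 were the closest at 0.106, followed by Stat6 and Irf2 at 0.107, and Stat6 and Irf7 the farthest at 0.827. The nearest gene to Irf7 was the antiviral 2'-5' oligoadenylate synthetase Oas3, at 0.0341, and the nearest to Stat2 the interferon-inducible GTPase Irgm1, at 0.0628. Irf9 was nearest to Myd88, an adaptor of Toll-like receptors, at 0.0380, Irf1 to the interferon-inducible Ifi27l2b at 0.0623, and Irf8 to the phospholipase Plaat3 at 0.0493. For the members with small changes the nearest genes were Misp (Stat3, 0.0129), Commd4 (Stat6, 0.00669) and Gstp2 (Irf2, 0.0194). These likenesses describe 6 samples only and include the difference between the groups.

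**Figure D3:**
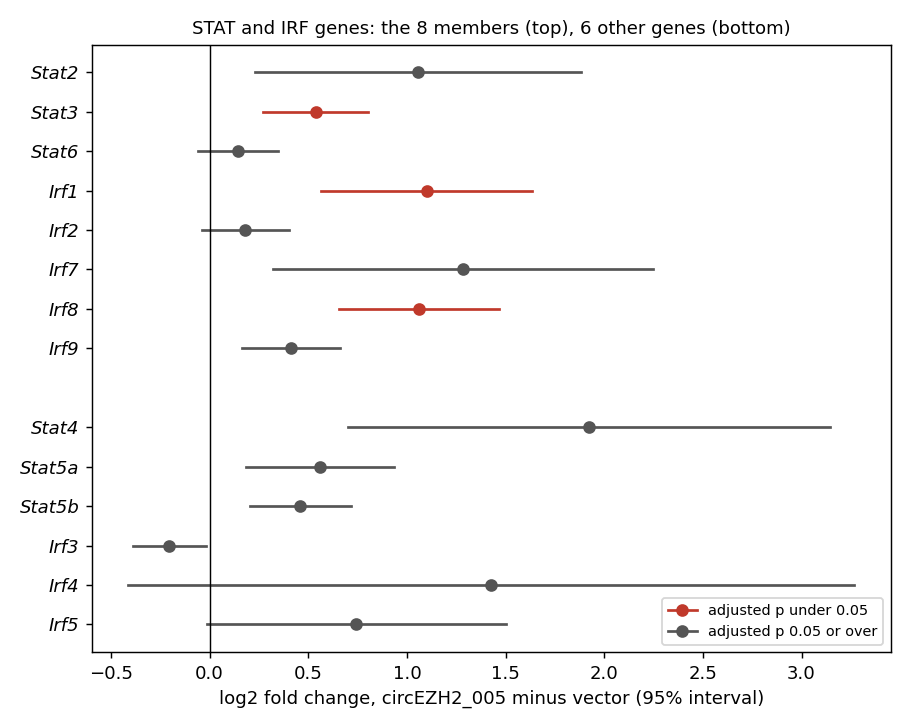
Log2 fold change (circEZH2_005 minus vector) with its 95% interval from edgeR for the 8 members and for 6 further STAT and IRF genes; red marks an adjusted p under 0.05. Stat3, Irf1 and Irf8 pass; the intervals of Stat2, Irf7 and Irf9 lie above 0 without passing the adjustment.

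At an unadjusted p under 0.05, 2562 of all 18348 genes tested were higher and 1784 lower in edgeR. DESeq2 called 1588 of all genes higher and 701 lower. Of 6 further STAT and IRF genes, 0 were called by edgeR in either direction, although 3 were higher and 1 was lower at an unadjusted p under 0.05. DESeq2 called 3 of them higher and limma on log2(FPKM + 1) none. Stat4, which serves interleukin-12 signals in lymphocytes, had the largest log2 fold change of these, 1.92 (edgeR adjusted p = 0.0810), at low levels of 1.23, 4.10 and 1.17 CPM with vector and 11.6, 7.11 and 5.88 CPM with circEZH2_005. Irf3, the constitutive partner of Irf7 in nucleic acid sensing, was the one with a negative value, with 51.8, 58.5 and 54.1 CPM against 45.6, 47.7 and 49.4 CPM, a log2 fold change of -0.20 (edgeR adjusted p = 0.173).

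The samples also differed in the markers of other cells. Epithelial markers were abundant in every sample, with Epcam at 1323 ± 38.6 CPM with vector and 1481 ± 135 CPM with circEZH2_005 (SD, n = 3 each). All 6 of them had a positive log2 fold change, with a median of 0.19. Of these, 1 was called higher and 0 lower by edgeR, against 2.69% and 0.986% of all genes tested. The number higher was 1 without vector sample 2, 2 without circEZH2_005 sample 1 and 0 without any other sample. Lgr5, the marker by which the cells had been sorted, was present at 15.5 ± 3.19 CPM with vector and fell to 8.45 ± 0.70 CPM with circEZH2_005 (log2 fold change -0.88, edgeR adjusted p = 0.0434). Of 6 crypt stem cell markers, 2 were lower, against 0.986% of all genes tested. This count was 3 without vector sample 2, 1 without circEZH2_005 sample 1, and 0 without any other sample. Leukocyte markers were found in all samples. Of 16, all had a positive log2 fold change, with a median of 1.29. Only Itgax passed the test (log2 fold change 1.86, edgeR adjusted p = 0.0362), where 2.69% of all genes tested were called higher. The number called was 5 without vector sample 2 (where 1098 of all genes were higher), 1 without circEZH2_005 sample 3 (where 136 were) and 0 without any other sample. Their summed level was 74.9, 191 and 99.2 CPM with vector and 479, 359.8 and 254 CPM with circEZH2_005, without overlap, and vector sample 2 was again the highest of its group. Of the list, only Xcr1 was at 0 in a sample (vector sample 1). In bulk samples a change in the number of cells of a type and a change in RNA per cell cannot be told apart.

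Levels per length set Irf8 beside these markers, whose means spanned 0.0137 to 7.04 FPKM with vector and 0.0333 to 23.0 FPKM with circEZH2_005. Irf8 was at 18.6 ± 4.18 FPKM with vector, where the T cell gene Cd8a, the highest of the 16, was at 7.04, the leukocyte antigen Ptprc was at 2.25, the T cell receptor subunit Cd3e at 1.86, the macrophage receptor Csf1r at 0.4997 and the B cell gene Cd79a at 0.388 FPKM. With circEZH2_005, Irf8 was at 36.3 ± 3.71 FPKM beside 23.0, 6.85, 6.53, 0.678 and 0.915 FPKM in the same order. The circEZH2_005 sample with the highest summed leukocyte markers, sample 1, had the lowest Irf8, Irf1, Stat3, Stat6 and Irf2 of that group in CPM. Its Irf7 and Stat2 lay between those of the other samples, and its Irf9 was the highest. The vector sample with the highest sum, sample 2, had the highest Irf8, Irf1, Stat3, Irf7, Stat2 and Irf9 of its group, but not the highest Stat6 or Irf2. For plasmacytoid dendritic cells, a rich source of Irf7, Siglech had 0.166, 0.669 and 0.230 CPM with vector and 2.49, 1.94 and 2.09 CPM with circEZH2_005 (log2 fold change 2.61, edgeR adjusted p = 0.0426). Of 5 such markers, 1 was called higher, against 2.69% of all genes tested (3 without vector sample 2, and 0 without any other sample). The summed level of these 5 overlapped between the groups, with 90.5, 183 and 89.1 CPM with vector and 205, 174 and 141 CPM with circEZH2_005. Of 7 endothelial and stromal markers tested, Pecam1, which leukocytes also express, was higher and none lower, against 2.69% and 0.986% of all genes tested. The number higher was 1 without vector sample 2 and 0 without any other sample. The summed level of the list was 4.97 to 8.51 CPM with vector and 5.26 to 15.2 CPM with circEZH2_005. What part such cells have in the levels of the members was not tested.

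**Figure D4:**
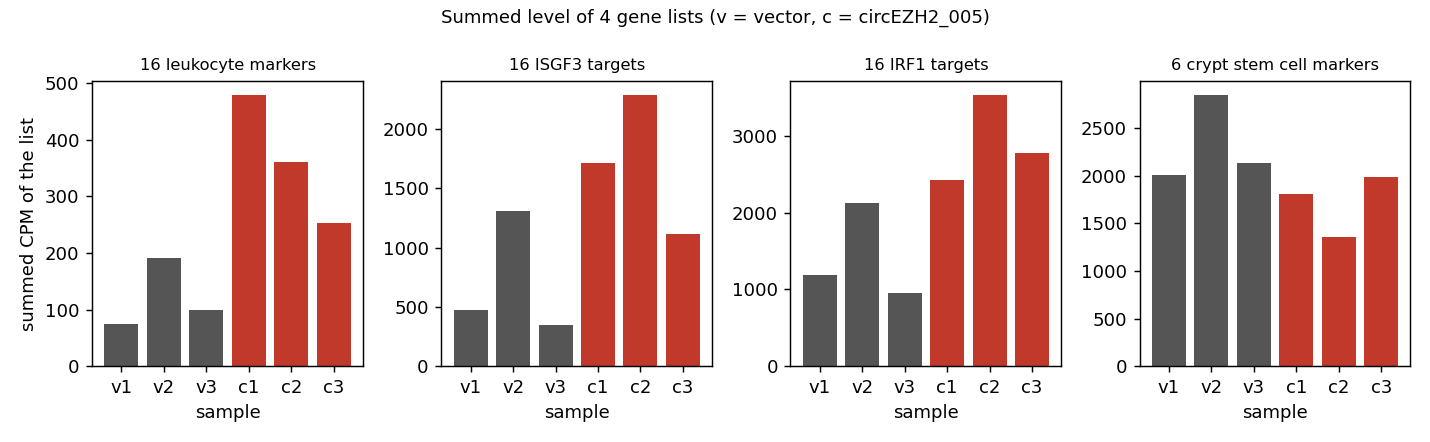
Summed CPM of the 16 leukocyte markers, 16 ISGF3 targets, 16 IRF1 targets and 6 crypt stem cell markers in vector samples 1 to 3 (v1 to v3) and circEZH2_005 samples 1 to 3 (c1 to c3). Vector sample 2 is the highest vector sample in all 4 panels, and only in the ISGF3 panel does it exceed a circEZH2_005 sample among the first 3 panels.

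Most ligands of these routes had few counts. Of 15 in the list, 5 could be tested and 0 were called by edgeR. At an unadjusted p under 0.05, 4 were higher, against 2562 of all 18348 genes tested. DESeq2 called 2 higher, against 1588 of all genes, and limma on log2(FPKM + 1) none. Ifng, the T and NK cell interferon, had 14, 87 and 8 counts with vector and 386, 297 and 79 counts with circEZH2_005, a log2 fold change of 2.77 (edgeR adjusted p = 0.122), and vector sample 2 lay above circEZH2_005 sample 3. Lif, a ligand of the Stat3 route, had the most counts, with 6.19, 8.62 and 6.25 CPM with vector and 8.54, 11.9 and 12.3 CPM with circEZH2_005 (log2 fold change 0.64, edgeR adjusted p = 0.116). The interferon lambda genes, the epithelial interferons, had at most 15 counts in any sample, with Ifnl2 at 0 in all vector samples and in circEZH2_005 samples 2 and 3. Counts of 3, taken as the lowest level told from none, equal 0.0377 to 0.0419 CPM at these depths, for counting error only.

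Among 16 tested receptors and kinases, 2 were higher and 0 lower by edgeR, against 2.69% and 0.986% of all genes tested. At an unadjusted p under 0.05, 1 was lower, against 1784 of all 18348 genes tested, and by DESeq2 and by limma on log2(FPKM + 1) 0 were. The 2 called higher are the chains of 1 receptor, that of interleukin-13 and interleukin-4, which signals to Stat6. Il13ra1 had 131.8, 132.3 and 132.0 CPM with vector and 221, 306 and 247 CPM with circEZH2_005, a rise of 0.97 on the log2 scale (SE 0.12, edgeR adjusted p = 0.0171). Il4ra had 50.6, 61.8 and 51.4 CPM with vector and 74.9, 106 and 84.4 CPM with circEZH2_005, a log2 fold change of 0.70 (adjusted p = 0.0468). With vector sample 1 or vector sample 3 left out, 0 of the list were called, and with circEZH2_005 sample 2 or 3 left out, 1 was. Stat6 itself, as given above, did not pass. Jak3, the kinase of leukocyte cytokine receptors, had a log2 fold change of 1.08 (adjusted p = 0.0551), and Ifngr1, the interferon-gamma receptor, the lowest of the list with -0.27 (adjusted p = 0.194).

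Of 17 inhibitors, 0 were called by edgeR. At an unadjusted p under 0.05, 4 were higher and 2 lower, against 2562 and 1784 of all 18348 genes tested. DESeq2 called 2 higher and 1 lower, against 1588 and 701 of all genes, and limma on log2(FPKM + 1) none. Socs1, which blocks JAKs after interferon-gamma, had the largest log2 fold change, 2.23 (edgeR adjusted p = 0.1002), from 0.953, 4.15 and 0.613 CPM to 6.89, 12.2 and 7.72 CPM, and Socs5 the lowest, -0.58. Of 18 tested genes upstream of the IRFs, such as Toll-like and cytosolic nucleic acid sensors, 0 were called by edgeR. Here 9 were higher at an unadjusted p under 0.05, against 2562 of all 18348 genes tested. DESeq2 called 7 higher, against 1588 of all genes, and limma on log2(FPKM + 1) none. Zbp1, a sensor of Z-form nucleic acids, had 40.8, 99.2 and 29.3 CPM with vector and 160.2, 228 and 163 CPM with circEZH2_005 (log2 fold change 1.70, adjusted p = 0.0667).

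**Figure D5:**
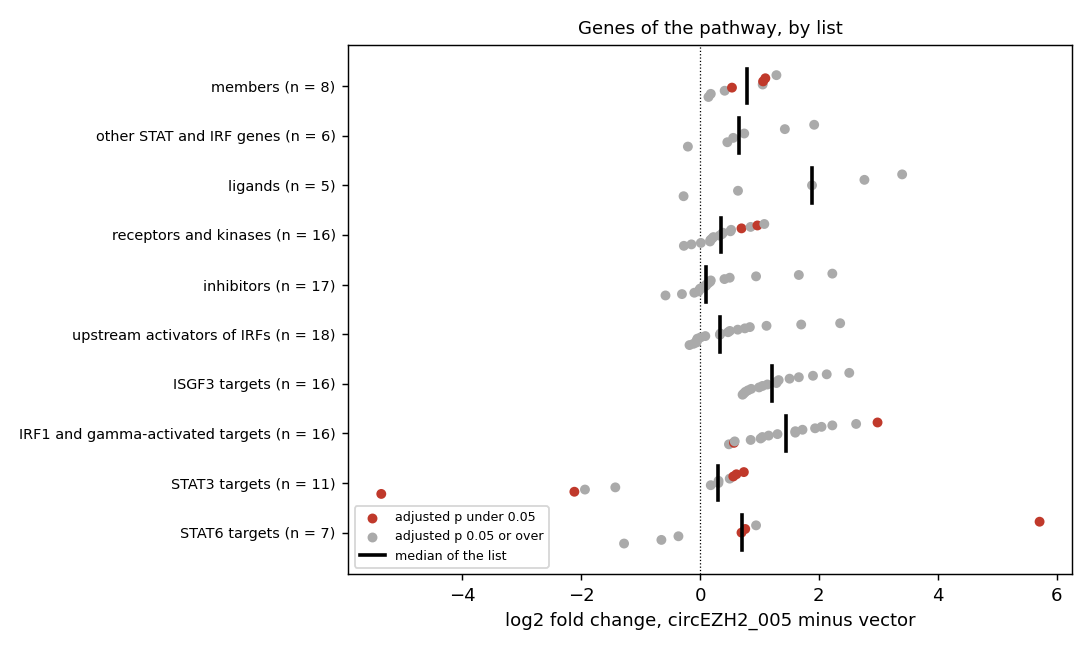
Log2 fold change (circEZH2_005 minus vector) of every tested gene in the members and in 9 lists of the pathway; red points passed an adjusted p of 0.05 in edgeR and the black bar is the list's median. The ISGF3 and IRF1 target lists lie wholly above 0 with medians of 1.21 and 1.45, while STAT3 targets reach from -5.36 to 0.74.

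Targets were described by list, from textbook membership. All 16 ISGF3 targets had a positive log2 fold change, with a median of 1.21, yet 0 were called by edgeR. At an unadjusted p under 0.05, 9 were higher, against 2562 of all 18348 genes tested. DESeq2 called 3 higher, against 1588 of all genes, and limma on log2(FPKM + 1) none. Rsad2, the antiviral enzyme viperin, had 4.68, 14.1 and 3.88 CPM with vector and 40.6, 68.3 and 20.1 CPM with circEZH2_005 (log2 fold change 2.51, edgeR adjusted p = 0.0601). As for Irf7 and Stat2, vector sample 2 was the highest vector sample, and without it 16 of 16 were called (1098 of all genes were higher in that fit). With any other sample left out, 0 were called by edgeR. The summed level of the list was 476, 1311 and 349 CPM with vector and 1713, 2290.0 and 1113 CPM with circEZH2_005, so that vector sample 2 exceeded circEZH2_005 sample 3.

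The 16 genes of the IRF1 and gamma-activated list were also all positive, with a median of 1.45, where 9174 of the 18348 genes tested were positive. Cd274, which encodes the T cell inhibitory ligand PD-L1, and Psmb10, an immunoproteasome subunit, passed, with log2 fold changes of 2.99 (edgeR adjusted p = 0.0342) and 0.57 (adjusted p = 0.0372). Cd274 had 1.80, 5.82 and 1.904 CPM with vector and 24.4, 36.5 and 14.7 CPM with circEZH2_005. In 13 of the 16 the groups did not overlap, with circEZH2_005 higher, against 16.4% of all genes tested. Thus 2 of 16 were called higher, where 2.69% of all genes tested were. This count was 15 without vector sample 2 (where 1098 of all genes were higher), 1 without circEZH2_005 sample 1, and 0 without vector sample 1, vector sample 3, circEZH2_005 sample 2 or circEZH2_005 sample 3.

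STAT3 targets were called in both directions. Pim1, a survival kinase, Junb, an early-response factor, and Ccnd1, cyclin D1, rose by 0.74, 0.61 and 0.56 on the log2 scale, with adjusted p-values of 0.0263, 0.0375 and 0.0412 by edgeR. Reg3b and Lcn2, antimicrobial proteins of the epithelium, fell by 2.11 and 5.36, with adjusted p-values of 0.0485 and 0.0214. Thus 3 of 11 tested were higher and 2 lower, against 2.69% and 0.986% of all genes. None of these calls was kept without vector sample 1, vector sample 3 or circEZH2_005 sample 2, where 0 were higher and 0 lower. There were 2 higher and 1 lower without circEZH2_005 sample 1, 0 and 1 without circEZH2_005 sample 3, 4 and 4 without vector sample 2, and 1 and 1 with the replicate number as a block. Socs3, its feedback inhibitor, had 0.50 (adjusted p = 0.296).

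Of 7 STAT6 targets tested, 3 were higher and 0 lower by edgeR, against 2.69% and 0.986% of all genes tested. At an unadjusted p under 0.05 and by DESeq2, 1 was lower (1784 and 701 of all genes were), and by limma on log2(FPKM + 1) 0 were. The 3 higher targets were Il4ra, given above, Clca1, a goblet cell mucus protein, at a log2 fold change of 0.76 (edgeR adjusted p = 0.0433), and the eosinophil chemokine Ccl24. Ccl24 had 0, 21 and 0 counts with vector and 337, 538 and 251 counts with circEZH2_005 (edgeR adjusted p = 0.0392), so its fold change rests on nearly empty vector samples. The 3 calls of this list became 1 without circEZH2_005 sample 1, 4 without vector sample 2 and 0 without any other sample. Retnlb, another goblet cell product, had a log2 fold change of -1.28 (adjusted p = 0.131).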

How the data were processed

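Libraries were prepared from oligo(dT)-selected RNA of 6 samples (3 per group). The authors deposited, for each gene, the raw count of reads and an FPKM value per sample, in 1 table; cutadapt 1.9, HISAT2 2.0.4, StringTie 1.3.4d, DESeq2 and mm10 are in the submitters' processing notes, while the counter, annotation and strand setting are not given in the sources used here. Columns headed NC were matched to vector because the labels hold no further group besides circEZH2_005. Counts summed to 71506487 to 79919893 per sample. Replicate spread, more than counting error, limits the precision. Genes were filtered with filterByExpr and tested together by quasi-likelihood in edgeR (version 4.0.16, under R 4.3.3), with TMM and no covariate. SE was taken from the F statistic. Alternatives used limma 3.58.1, DESeq2 1.42.0, other scalings and filters, the replicate block and each sample left out. Scripts were tested on simulated data. The members and gene lists were chosen with earlier results of these data known. The naming rule covered all members, defining markers and overlapping genes. Of each list it took up to 4 called genes with the smallest p and the 1 farthest in the other direction. Of the 2 nearest profiles it gives per member, the nearest is named. Some genes under this rule are not named, such as the called epithelial marker. Other genes named in the lists, to show uncalled values, were chosen after their values were seen. Some items are not reported here.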

Additional observations from a re-analysis of the deposited data

How the results depend on the processing

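All 8 members kept a positive log2 fold change in every one of 15 alternative fits. The 3 members called higher by edgeR became 0 in limma on log2(FPKM + 0.1), 0 in limma on quantile-normalized log2 CPM and 0 without a filter on low counts (28752 genes tested). Limma on log2(FPKM + 1) called 1, and edgeR with median-of-ratios or upper-quartile scaling called 2. DESeq2 called 4, Irf9 (adjusted p = 0.0223) among them, and 4 passed in edgeR at an adjusted p under 0.1. With each sample left out, between 0 and 6 were called. No fit called a member lower. The counts over all genes, 493 higher and 181 lower, became 1588 and 701 in DESeq2, 1392 and 687 at an adjusted p under 0.1, 310 and 292 in limma on log2(FPKM + 1), 168 higher in limma on log2(FPKM + 0.1) (where 121 were lower), 40 and 9 with quantile normalization, 132 and 37 without a filter, and from 26 to 1098 and from 2 to 334 with each sample left out (lowest without vector sample 1, highest without vector sample 2). The fit without the filter covered a wider set of genes, and the fits with a sample left out had fewer samples. What caused these changes in the counts was not tested.

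With the replicate number as a block, 241 genes were higher and 36 lower, and 4 members were called: Irf1, Irf8, Irf7 and Stat2 (adjusted p = 0.0411, 0.0251, 0.0325 and 0.0446 by edgeR), while Stat3 had 0.0754. Deviations of same-numbered samples had correlations of -0.14, -0.02 and 0.04 across genes, and not every sample correlated best with its own number. With so few samples per group, these correlations cannot tell whether same-numbered samples share an animal or a day. The labels do not give this either. The list counts and ratios between members also moved with the sample left out; the difference of the Irf1 to Irf2 ratio (log2) stayed between 0.82 and 1.23.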
